A study of Homo sapiens with 4 samples.

Results

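The subunits of the mitochondrial respiratory chain and of the ATP synthase were examined in RNA sequencing of MV4-11 cells with and without knockdown of IRF1, an interferon-responsive transcription factor. The genes were chosen by symbol among the protein-coding rows of the deposited table, namely the NDUFA, NDUFB, NDUFC, NDUFS and NDUFV subunits of complex I, the SDHA to SDHD subunits of complex II, the UQCR genes and CYC1 of complex III, the COX4I, COX5, COX6, COX7 and COX8 genes of complex IV, the ATP5F1, ATP5M and ATP5P genes of the ATP synthase, and the protein-coding genes of the mitochondrial genome. They numbered 96 of 23622 genes in the table, of which 83 are encoded in the nucleus and 13 in mitochondrial DNA. A further 33 rows that matched the same symbols but were not protein coding, most of them pseudogenes by name, were left out. Of the protein-coding matches in the annotation, ATP5MF-PTCD1, ATP5MGL, COX4I2, COX6A2, COX7B2 and NDUFC2-KCTD14 were not analysed here.

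MV4-11 is an established human acute myeloid leukemia line that carries a KMT2A fusion and an internal tandem duplication in FLT3. The 2 NC libraries are labelled as wild type with no treatment, whereas the study names its negative control sh-NC. The 2 sh-IRF1 libraries are labelled as wild type with knockdown of IRF1, which the methods describe as a lentiviral short hairpin RNA in the pLKO.1 vector followed by selection with puromycin. The labels do not say whether the numbers 1 and 2 mark separate cultures or, for sh-IRF1, separate hairpins, so p-values measure the spread between these samples only, which may be technical.

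Each library held between 17635908 and 18695337 reads on genes, and the mitochondrial genome took 3.92% to 4.51% of them. IRF1 itself had normalized read counts of 785 and 738 in the NC libraries and 430 and 432 after knockdown (log2 fold change -0.82, SE 0.09, adjusted p = 1.69e-10). All 12 markers of myeloid leukemia examined, FLT3, CD33 and SPI1 among them, were above the detection filter. Of these 12, 4 were lower and 4 higher in sh-IRF1 (33.3% each, against 21.9% and 20.3% of all genes). MPO, a granule enzyme of early myeloid cells, fell from 477 and 443 to 185 and 158 (log2 fold change -1.42, adjusted p = 7.78e-13). LYZ, the lysozyme of maturing myeloid cells, rose from 1824 and 1785 to 3276 and 3218 (log2 fold change 0.85, adjusted p = 3.83e-20). FLT3 (-0.46), PTPRC (-0.48) and CSF1R (-0.19) were also lower, and ITGAM (0.64), CSF3R (0.44) and SPI1 (0.17) higher. Of 13 markers of other cell types, 2 passed that filter, among them the B-lineage gene CD79A, which was 50.3 and 43.1 in NC and 190 and 250 in sh-IRF1. CD3G and COL1A1 reached at most 4.97 normalized reads, and the other 9, CD3D, CD3E, MS4A1, HBB and EPCAM among them, were not analysed here. The part of these marker changes in the results below was not tested.

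The respiratory chain passes electrons from NADH (complex I) and succinate (complex II) through coenzyme Q, complex III and cytochrome c to oxygen (complex IV), and the ATP synthase (complex V) uses the proton gradient this builds. Complex II is made wholly from nuclear genes, whereas complexes I, III, IV and V each combine nuclear subunits with a core of subunits from mitochondrial DNA. Mitochondrial DNA is transcribed as long RNAs that are cut into separate messages largely at the tRNAs between them, so that neighbouring genes on a strand start out in the same transcript. Myeloid leukemia cells are known for a high reliance on oxidative phosphorylation. NRF1, the GABPA and GABPB1 pair and YY1 are nuclear transcription factors long known to act at promoters of respiratory genes.

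Promoter sequences were compared because the nuclear subunits are the ones those factors can reach. A RefSeq window of 250 bases before to 50 bases after the start was at hand for 66 of the 83 nuclear genes (79 windows, GRCh38.p14). NDUFB5, SDHC, ATP5F1B and CYC1 were among the 17 with no window in that table. Each stretch below holds the 120 bases before the start, written 5′ to 3′ on the strand of the gene, with matches in capitals to GCATGCGC, part of the NRF1 site, or to CCGGAAGT, the ETS site bound by GABPA, on either strand. SDHD is shown because it holds both sites, and ATP5F1C and COX8A because they hold a site and differed in direction. COX5B is shown as a gene with a site that was not called. Further upstream COX5B also holds the NRF1 letters, and another ETS match runs past its printed end and is left in lower case. ATP5PF, not called and not shown, holds both sites as well.
SDHD (chr11:112086753-112086872, plus strand): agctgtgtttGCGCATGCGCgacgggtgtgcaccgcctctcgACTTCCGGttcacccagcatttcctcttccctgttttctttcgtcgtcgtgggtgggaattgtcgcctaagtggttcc
ATP5F1C (chr10:7788057-7788176, plus strand): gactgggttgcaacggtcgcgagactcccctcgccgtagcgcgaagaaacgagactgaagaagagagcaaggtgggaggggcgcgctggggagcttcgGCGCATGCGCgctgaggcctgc
COX8A (chr11:63974500-63974619, plus strand): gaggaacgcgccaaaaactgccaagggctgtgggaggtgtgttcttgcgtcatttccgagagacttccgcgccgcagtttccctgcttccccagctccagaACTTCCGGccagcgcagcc
COX5B (chr2:97645942-97646061, plus strand): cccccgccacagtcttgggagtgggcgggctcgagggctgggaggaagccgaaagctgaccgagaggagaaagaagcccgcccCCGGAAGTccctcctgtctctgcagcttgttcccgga

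The 10 capitals in SDHD and in ATP5F1C are the NRF1 letters and their reverse complement read over each other. Over the whole windows, GCATGCGC stood in 15 of 79 windows of the nuclear genes (19%) and in 3.05% of all 35116 windows in the table. CCGGAAGT stood in 12 of 79 (15.2%) against 4.14% of all, and AAGATGGC, part of the YY1 site, in 13 of 79 (16.5%) against 2.89% of all. The core of an IRF site, GAAANNGAA, stood in 6 of 79 (7.59%) and in 8.11% of all windows, and the E-box CACGTG in 7 of 79 (8.86%) and in 7.26% of all. A match describes letters and is not a bound site. Among the 14 genes with the NRF1 letters, 3 were lower in sh-IRF1, 1 was higher and 10 were not called. Among the 12 with the ETS letters, 5 were lower, 1 was higher and 6 were not called. Of the 66 genes with a window, 14 were lower and 3 higher.

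After knockdown of IRF1, more nuclear subunit genes were lower than higher, and most of the differences were small. Of 80 nuclear genes tested, 20 were lower in sh-IRF1 (25%, against 21.9% of all 14120 genes tested), 6 were higher (7.5%, against 20.3% of all genes) and 54 were not called. Their median log2 fold change was -0.07, and that of all genes was -0.0019. Beyond a log2 fold change of 0.5, only NDUFB5 and ATP5MK were called lower and none was called higher by limma, at an unadjusted p under 0.05, by edgeR or by DESeq2, whereas 7.56% of all genes were lower and 8.27% higher by that rule. In 36 of the 80 genes both sh-IRF1 libraries lay below both NC libraries (35% of all genes), and in 21 both lay above (34.2% of all genes). COX6B2, COX7A1 and COX8C, isoforms known from testis and muscle, had at most 6.96 normalized reads in any library and were not tested. With the libraries scaled to equal total reads instead, 18 nuclear genes were lower and 12 higher, while over all genes 18.7% were then lower and 24.2% higher.

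**Figure D1:**
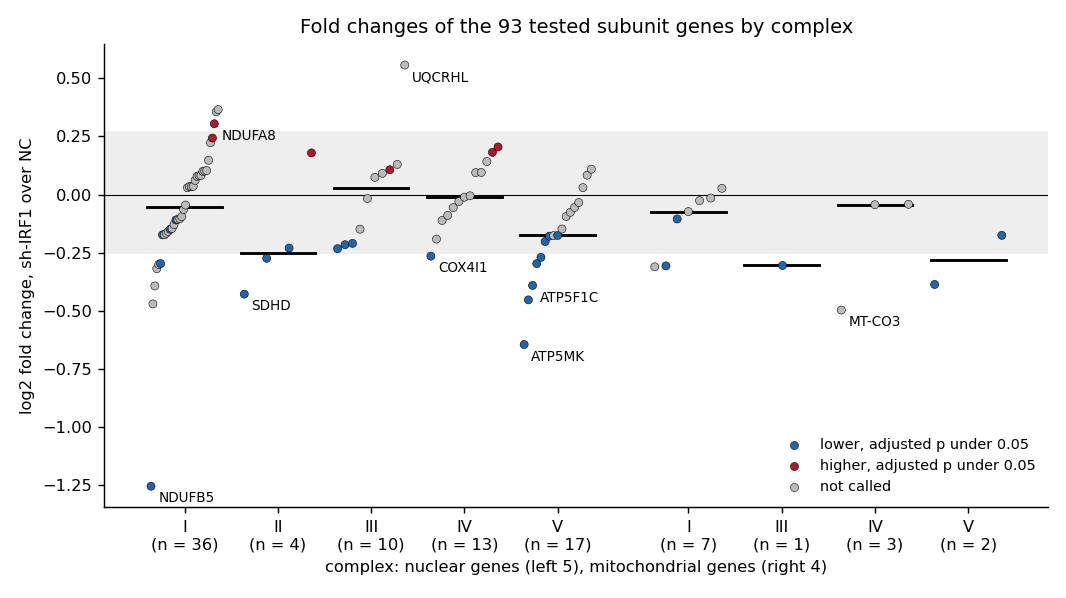
Log2 fold change of each of the 93 tested subunit genes (vertical axis, sh-IRF1 over NC), by complex, for nuclear genes on the left and mitochondrial genes on the right. Blue and red points passed the limma test, black bars are medians and the grey band holds the central part of all genes tested, from -0.251 to 0.268, into which most points fall. NDUFB5 stands below all others at -1.26.

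NDUFB5, an accessory subunit in the membrane arm of complex I, had the largest change of all subunit genes. Its normalized read counts were 1024 and 961 in NC and 426 and 404 in sh-IRF1, so that the sh-IRF1 libraries held 41.8% of the NC level (log2 fold change -1.26, SE 0.09, adjusted p = 6.22e-17). The groups were far apart relative to the distance within either group. NDUFB5 lies on chromosome 3 beside MRPL47, a mitochondrial ribosomal protein gene that starts close by on the other strand and was looked up after the values of NDUFB5 were seen. MRPL47 was 589 and 559 in NC and 554 and 424 in sh-IRF1 and did not pass the test (log2 fold change -0.24, SE 0.10, adjusted p = 0.0528).

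The other 35 nuclear genes of complex I moved little, with a median over all 36 of -0.06. NDUFS1, the largest core subunit, which holds iron-sulfur clusters, fell from 3498 and 3747 to 3179 and 3240 (log2 fold change -0.17, SE 0.04, adjusted p = 8.05e-04). NDUFV1, which binds NADH, was 3220 and 3158 in NC and 3392 and 3343 in sh-IRF1 (log2 fold change 0.08, adjusted p = 0.132), and NDUFS3 and NDUFV2 were not called either.

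Among the 29 accessory subunits of complex I, NDUFB5, NDUFB7 and NDUFB9 were lower and NDUFS5 and NDUFA8 were higher. NDUFS5, an accessory subunit of the membrane arm, rose from 874 and 853 to 1020 and 1024 (log2 fold change 0.24, SE 0.07, adjusted p = 0.0045). NDUFA8, another accessory subunit, rose from 373 and 367 to 427 and 490 (log2 fold change 0.30, SE 0.11, adjusted p = 0.0193). NDUFB7 (log2 fold change -0.15) and NDUFB9 (-0.11) were lower. The call of NDUFA8 was lost without NC-2 or without sh-IRF1-2, that of NDUFB7 without any library but NC-2, and that of NDUFB9 without NC-1 or sh-IRF1-2. All 3 were also lost with DESeq2, NDUFB7 and NDUFB9 with the libraries scaled to equal totals (with or without the mitochondrial genome), and NDUFB7 with no filter on low values. NDUFB1 had a log2 fold change of -0.47 at 48.7 to 80.1 reads and NDUFA7 of 0.37 at 10.3 to 13.9 reads, and neither passed the test.

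All 4 genes of complex II (succinate dehydrogenase) were called, 3 lower (75%, against 21.9% of all genes) and 1 higher (25%, against 20.3%). SDHD, a membrane anchor of the complex, fell from 1634 and 1620 to 1196 and 1221 (log2 fold change -0.43, SE 0.06, adjusted p = 4.53e-08). SDHA, the flavoprotein that oxidizes succinate, fell from 8444 and 8067 to 6886 and 6757 (log2 fold change -0.27, SE 0.03, adjusted p = 1.69e-09). SDHB, the iron-sulfur subunit, fell from 1442 and 1404 to 1254 and 1172 (log2 fold change -0.23, SE 0.06, adjusted p = 0.00201). SDHC, the other anchor, which binds the same heme as SDHD, went the other way, from 1694 and 1804 to 2072 and 1890 (log2 fold change 0.18, SE 0.05, adjusted p = 0.00687). The groups did not overlap in any of the 4 genes, as was so for 35% of all genes in the lower and 34.2% in the higher direction. The call of SDHC was lost without NC-1 or without sh-IRF1-1, and that of SDHB without sh-IRF1-2. SDHA and SDHD share 21.7% and 11.4% of their exonic bases with other annotated genes, and which reads were counted there is not known.

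Complex III was mixed, with 3 of its 10 nuclear genes lower (30%, against 21.9% of all genes), 1 higher (10%, against 20.3%) and a median log2 fold change of 0.03. UQCRC2 and UQCRC1, its paired core proteins, differed in opposite directions. UQCRC2 fell from 3708 and 3650 to 3205 and 3056 (log2 fold change -0.23, SE 0.04, adjusted p = 9.94e-06). UQCRC1 rose from 5629 and 5618 to 6108 and 6001 (log2 fold change 0.11, SE 0.03, adjusted p = 0.0112), a call that was lost without sh-IRF1-1. UQCRFS1, the Rieske iron-sulfur protein, fell from 3386 and 3280 to 2879 and 2859 (log2 fold change -0.22, SE 0.04, adjusted p = 4.94e-05). UQCRH, the hinge protein, had a log2 fold change of -0.21 (SE 0.07, adjusted p = 0.00843), which was lost without sh-IRF1-1. CYC1, the cytochrome c1 subunit and at 4328 normalized reads per kilobase of exon in NC the second most abundant nuclear message of the group, was 8752 and 8238 in NC and 9035 and 8840 in sh-IRF1 (log2 fold change 0.07, adjusted p = 0.0621). Across 15 alternatives CYC1 ran from 0.03 to 0.12 and was called higher in 5. UQCRHL, a near-identical copy of UQCRH, was 30.8 and 32.9 in NC and 76.6 and 29.0 in sh-IRF1. Its log2 fold change of 0.56, the highest of all subunit genes tested, came from sh-IRF1-1 alone and did not pass the test (adjusted p = 0.219).

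Complex IV, the cytochrome c oxidase, held 1 lower and 2 higher genes among 13 nuclear genes tested (7.69% and 15.4%, both below the shares over all genes), with a median of -0.01 (0.03 with libraries scaled to equal totals). COX4I1, the largest nuclear subunit, which takes part in regulation by ATP, fell from 5299 and 4895 to 4289 and 4185 (log2 fold change -0.27, SE 0.04, adjusted p = 2.23e-07). COX8A, a small membrane subunit, rose from 1581 and 1514 to 1775 and 1735 (log2 fold change 0.18, SE 0.06, adjusted p = 0.00666). NDUFA4, named for complex I but now counted as a subunit of complex IV, rose from 1030 and 963 to 1203 and 1096 (log2 fold change 0.20, SE 0.07, adjusted p = 0.0139). Both higher calls were lost without NC-2 or without sh-IRF1-1, and 35.4% of the exonic bases of COX8A are shared with an unnamed gene on the same strand. COX5B, whose promoter is shown above, was 1249 and 1176 in NC and 1143 and 1101 in sh-IRF1 (log2 fold change -0.11, adjusted p = 0.169). NDUFA4L2, an isoform of NDUFA4 known to be induced in low oxygen, lay between 227 and 285 in the 4 libraries (log2 fold change -0.19, adjusted p = 0.277). COX5A, COX6A1, COX6B1, COX6C, COX7A2, COX7B and COX7C had log2 fold changes from -0.06 to 0.14, none of which passed the test. Of 15 alternatives, COX6B1 was called higher in 4 and COX5A in 2.

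In the ATP synthase 8 of 17 nuclear genes were lower (47.1%, against 21.9% of all genes), with a median log2 fold change of -0.18. None was higher (20.3% of all genes) by limma on all 4 libraries as deposited, by edgeR or DESeq2, or at an unadjusted p under 0.05. Of its catalytic F1 part, 4 of 5 genes were lower. ATP5F1B, the catalytic beta subunit and at 9506 normalized reads per kilobase the most abundant nuclear message of the group, fell from 21373 and 21176 to 17550 and 17722 (log2 fold change -0.27, SE 0.03, adjusted p = 1.15e-12). ATP5F1A, the alpha subunit that alternates with it in the hexamer, fell from 12018 and 11442 to 10441 and 10315 (log2 fold change -0.18, SE 0.03, adjusted p = 3.3e-06). ATP5F1C, the gamma subunit that turns inside the hexamer, fell from 2544 and 2525 to 1959 and 1905 (log2 fold change -0.39, SE 0.05, adjusted p = 4.17e-09). ATP5F1D, the delta subunit of the stalk, fell from 5996 and 6210 to 5475 and 5303 (log2 fold change -0.18, SE 0.04, adjusted p = 4.65e-05). In each of these 4 genes, listed because they were called lower, every sh-IRF1 value lay below every NC value, as was so for 35% of all genes. ATP5F1E, the epsilon subunit, was 258 and 272 in NC and 233 and 272 in sh-IRF1 and was not called.

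In the membrane part and peripheral stalk of the ATP synthase, 3 of 5 small membrane subunits (60%) and 1 of 4 stalk genes (25%) were lower. Of all genes, 21.9% were lower, which is near the share of the stalk genes. ATP5MK, a small subunit also known as DAPIT that helps to join synthases into dimers, fell from 524 and 495 to 346 and 305 (log2 fold change -0.65, SE 0.11, adjusted p = 2.48e-06), with 18.1% of its exonic bases shared with other genes. ATP5MJ and ATP5MF, further small membrane subunits, had log2 fold changes of -0.45 (SE 0.12, adjusted p = 0.0017) and -0.30 (SE 0.09, adjusted p = 0.009). The call of ATP5MJ was lost without NC-1 and that of ATP5MF without NC-2 or sh-IRF1-2. ATP5MG, another small membrane subunit, was 331 and 363 in NC and 367 and 341 in sh-IRF1 (log2 fold change 0.03, adjusted p = 0.861), and ATP5ME was not called. ATP5PB, the b subunit of the peripheral stalk, fell from 3568 and 3727 to 3231 and 3108 (log2 fold change -0.20, SE 0.04, adjusted p = 9.87e-05), and the other 3 stalk genes were not called. The 3 genes of the c ring, the proton-carrying rotor, were not called: ATP5MC1 had a log2 fold change of 0.11, ATP5MC2 of 0.08 and ATP5MC3 of -0.09. Across 15 alternatives ATP5MC2 ran from -0.017 to 0.18 and was called higher in 3. ATP5PF, of the peripheral stalk, was called lower in 1 of them. ATP5IF1, the natural inhibitor of the synthase, which the symbol rule leaves out, rose from 349 and 285 to 466 and 425 (log2 fold change 0.50, SE 0.12, adjusted p = 4.06e-04).

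**Figure D2:**
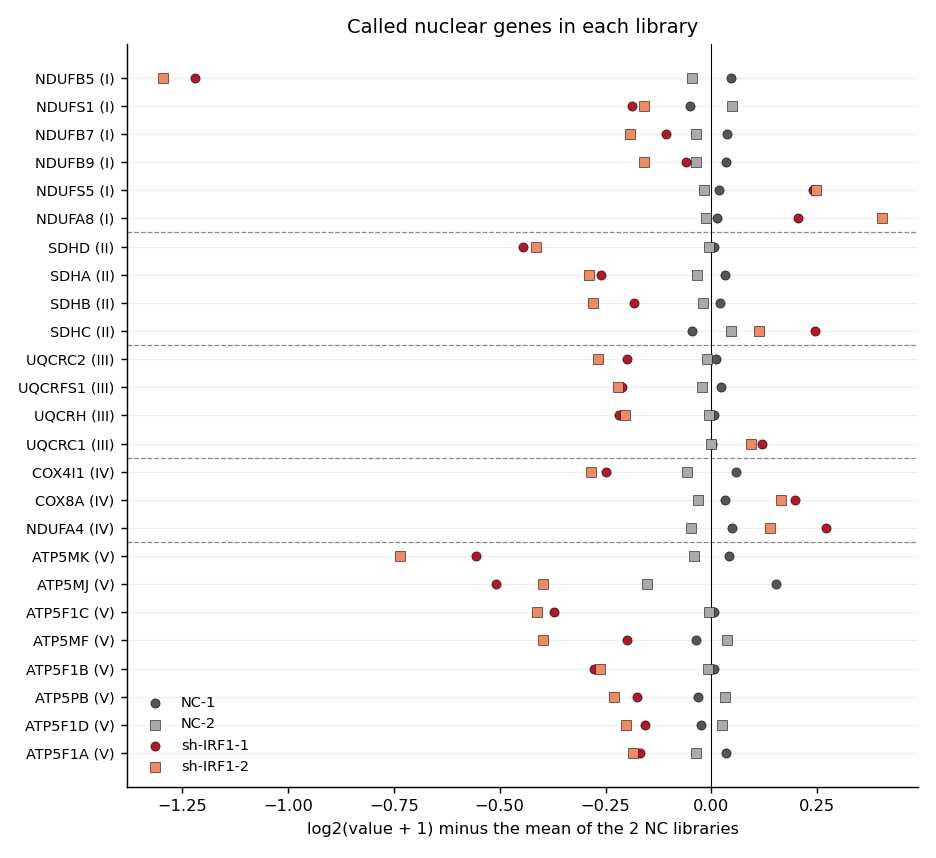
Nuclear subunit genes that passed the limma test, each with its 4 libraries. The horizontal axis gives log2(normalized read count + 1) minus the mean of the NC libraries, with the complex in brackets and dashed lines between complexes. In every row shown, each picked by that test on these libraries, both sh-IRF1 points lie on the same side of both NC points. Of all genes, 35% are so placed in the lower and 34.2% in the higher direction. The distance is largest for NDUFB5 and ATP5MK.

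With all 4 libraries the 6 higher genes had adjusted p from 0.0045 to 0.0193 by limma, nearer the threshold than most lower genes. Each library was then left out in turn, and the share of calls kept over all genes was not computed. Of the 20 lower nuclear genes, 14 kept their call in all 4 of these fits, and the same 14 kept it in all 15 alternatives run. Among them were NDUFB5, NDUFS1, SDHA, SDHD, UQCRC2, UQCRFS1, COX4I1, ATP5F1A, ATP5F1B, ATP5F1C, ATP5F1D, ATP5MK and ATP5PB. Of the 6 higher genes, NDUFS5 alone kept its call in all 15. Without the 32 nuclear genes whose exons overlap another gene or that have a copy, 15 of 49 were lower (30.6%, against 21.9% of all genes) and 5 higher (10.2%, against 20.3%).

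Levels within a complex were unequal although most subunits are present in equal copy number in the protein. In NC, nuclear complex I genes ranged from 7.37 (NDUFA7) to 2697 (NDUFB7) normalized reads per kilobase of exon, with a median of 182. The kit used does not mark strand, so reads from genes that overlap on opposite strands cannot be told apart. The 32 nuclear genes whose exons overlap another gene on either strand, or that have a copy, had a median level of 170 per kilobase, and the other 51 had 420. ATP5ME, for example, which shares 61.3% of its exonic bases with MYL5, had 6.15 and 10.3 normalized reads in NC and 3.98 and 12.2 in sh-IRF1.

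The mitochondrial subunit genes were far more abundant, with a median of 39300 normalized reads per kilobase in NC and a range from 1078 (MT-ATP8) to 118130 (MT-CO1). Which reads were counted where MT-ATP8 overlaps MT-ATP6 is not known, so its level may not reflect its abundance. Of 13 genes, 5 were lower in sh-IRF1 (38.5%, against 21.9% of all genes), none was higher (20.3% of all genes) and 8 were not called, with a median log2 fold change of -0.11. None was called with a log2 fold change beyond 0.5 by limma, at an unadjusted p under 0.05 or by edgeR (0 in each), and DESeq2 called 1. No mitochondrial gene was higher at an unadjusted p under 0.05, with edgeR or with DESeq2 either (0 in each). In 8 of the 13 both sh-IRF1 libraries lay below both NC libraries (35% of all genes).

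MT-CYB, the cytochrome b subunit of complex III, fell from 40268 and 43684 to 33924 and 33978 (log2 fold change -0.30, SE 0.03, adjusted p = 1.3e-11). MT-ATP6, subunit a of the proton channel, fell from 58371 and 62260 to 54117 and 52622 (log2 fold change -0.18, SE 0.02, adjusted p = 3.46e-08). MT-ND3, a membrane core subunit of complex I, fell from 1592 and 1603 to 1394 and 1196 (log2 fold change -0.31, SE 0.06, adjusted p = 7.3e-05). MT-ND2, another, fell from 39405 and 42568 to 38211 and 37931 (log2 fold change -0.11, SE 0.02, adjusted p = 6.13e-04). MT-ATP8, which overlaps MT-ATP6 over 22.2% of its length and is read at a far lower level, was 236 and 211 in NC and 166 and 174 in sh-IRF1 (log2 fold change -0.39, SE 0.15, adjusted p = 0.0373). Its call was lost without NC-1, without sh-IRF1-1 or without sh-IRF1-2, and also with DESeq2, with no filter and with the libraries scaled to equal totals (with or without the mitochondrial genome). The other 4 kept theirs without each library, but MT-ND2 was not called with DESeq2, which left 3 of the 5 called in all 15 alternatives.

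MT-CO3 and MT-ND1 had differences as large as these but did not pass the test. MT-CO3, a core subunit of complex IV, was 73435 and 83420 in NC and 57163 and 53747 in sh-IRF1 (log2 fold change -0.50, SE 0.09, adjusted p = 0.056). MT-ND1 was 72937 and 80976 in NC and 62087 and 61763 in sh-IRF1 (log2 fold change -0.31, SE 0.07, adjusted p = 0.0543). In both the groups lay apart, and the NC libraries were far from each other. NC-2 was above NC-1 in 12 of the 13 mitochondrial genes. Without the robust setting of limma, 8 mitochondrial genes were lower, MT-CO3 (adjusted p = 2.95e-13), MT-ND1 (adjusted p = 1.26e-10) and MT-ND5 (adjusted p = 0.0306) being added. Without NC-1, 10 were lower.

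In the remaining mitochondrial genes the groups overlapped, except in MT-ND5, where both sh-IRF1 values lay just below both NC values. MT-CO1, the catalytic subunit of complex IV, was 177059 and 187253 in NC and 179625 and 174100 in sh-IRF1 (log2 fold change -0.04, adjusted p = 0.148). MT-CO2 was 43701 and 44704 in NC and 44570 and 41237 in sh-IRF1 (log2 fold change -0.04, adjusted p = 0.174). MT-ND4 was 85856 and 93578 in NC and 88723 and 88665 in sh-IRF1 (log2 fold change -0.02, adjusted p = 0.816). MT-ND4 and MT-ND4L, which share a message, both lay within 0.03 of 0 on the log2 scale. MT-ND6, the only subunit gene on the light strand, had a log2 fold change of -0.03 (adjusted p = 0.506), and MT-ND5 of -0.07 (adjusted p = 0.0739).

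Along the mitochondrial genome the lower genes did not form a single block. The ribosomal RNAs that open the heavy strand transcript were both lower, MT-RNR2 from 98084 and 101360 to 75043 and 74542 (log2 fold change -0.41, SE 0.02, adjusted p = 5.56e-24) and MT-RNR1 from 9131 and 9288 to 7471 and 7175 (log2 fold change -0.33, SE 0.03, adjusted p = 4.55e-12). MT-ND1 followed at -0.31, MT-ND2 at -0.11, and MT-CO1 and MT-CO2 at -0.04. Lower values came again at MT-ATP8, MT-ATP6, MT-CO3 and MT-ND3, then values near 0 from MT-ND4L to MT-ND6, and -0.30 at MT-CYB. The tRNA genes MT-TL1, between MT-RNR2 and MT-ND1, and MT-TP, near MT-CYB, were looked up after these values were seen. MT-TL1 was 1169 and 1179 in NC and 658 and 687 in sh-IRF1 (log2 fold change -0.80, SE 0.07, adjusted p = 6.11e-13), and MT-TP was 229 and 219 in NC and 113 and 75.9 in sh-IRF1 (log2 fold change -1.26, SE 0.19, adjusted p = 1.92e-07). MT-TY and MT-TC, beside MT-CO1, were not called at -0.06 and -0.04. The kit does not mark strand, and whether reads on these tRNA genes came from tRNA or from uncut neighbouring transcript was not tested.

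**Figure D3:**
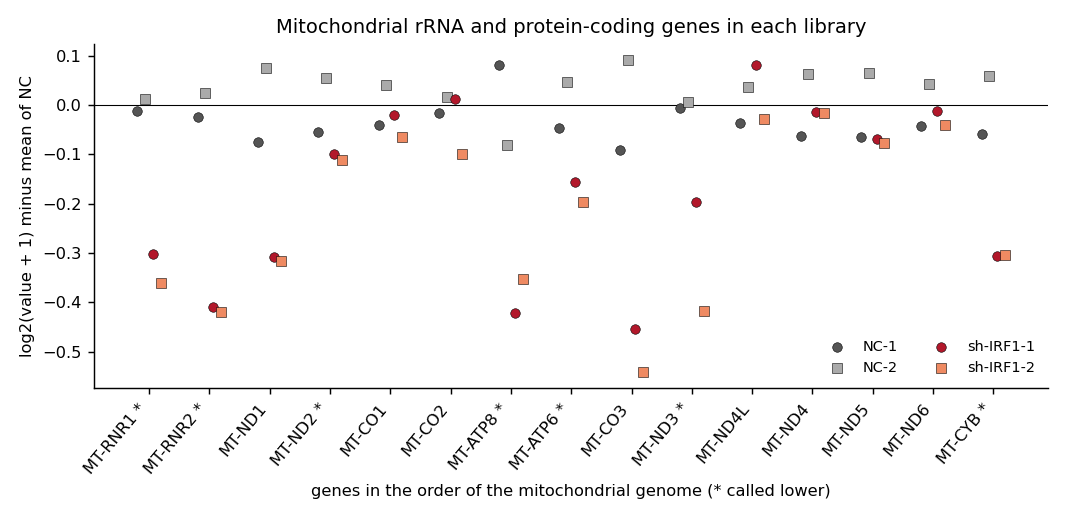
Ribosomal RNA and protein-coding genes in the order of the mitochondrial genome, with 1 point per library. The vertical axis gives log2(normalized read count + 1) minus the mean of the NC libraries, and stars mark genes called lower by limma. Low sh-IRF1 points stand at MT-RNR1 to MT-ND1, at MT-ATP8 to MT-ND3 and at MT-CYB, while MT-ND2, also called lower, stands at -0.11 and the genes from MT-ND4L to MT-ND6 lie near 0.

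Nuclear copies of mitochondrial sequence can take or lend reads. MTND2P28 held 5.18% as many reads as MT-ND2, MTATP6P1 2.8% as many as MT-ATP6, and the copies of the other genes less than 1%. MTATP6P1 was lower (log2 fold change -0.18, adjusted p = 0.00916), MTCO1P12 was higher (0.29, adjusted p = 0.0193), and MTND2P28 was not called (-0.07).

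Set against each other, the nuclear and the mitochondrial genes had medians of -0.07 and -0.11 in log2 fold change. The 83 nuclear genes took 0.811% and 0.793% of the reads in NC and 0.765% and 0.758% in sh-IRF1, so both sh-IRF1 libraries lay below both NC libraries. The 13 mitochondrial genes took 3.58% and 3.86% in NC and 3.5% and 3.43% in sh-IRF1, also with no overlap, although NC-1 stood closer to sh-IRF1-1 than to NC-2. The ratio of the summed normalized counts, mitochondrial over nuclear, was 4.42 and 4.87 in NC and 4.57 and 4.52 in sh-IRF1, so that the sh-IRF1 libraries fell between the NC libraries. With each gene taken per kilobase of exon the ratio was 11.5 and 12.6 in NC and 11.4 and 11.2 in sh-IRF1, and both sh-IRF1 libraries lay below both NC libraries. Whether the groups overlapped thus depended on the scale, and NC-1 was closer to sh-IRF1 than to NC-2 on both. With 4 libraries the smallest exact permutation p is 0.333. In bulk RNA, fewer mitochondria, fewer cells of a kind and less RNA per cell cannot be told apart.

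**Figure D4:**
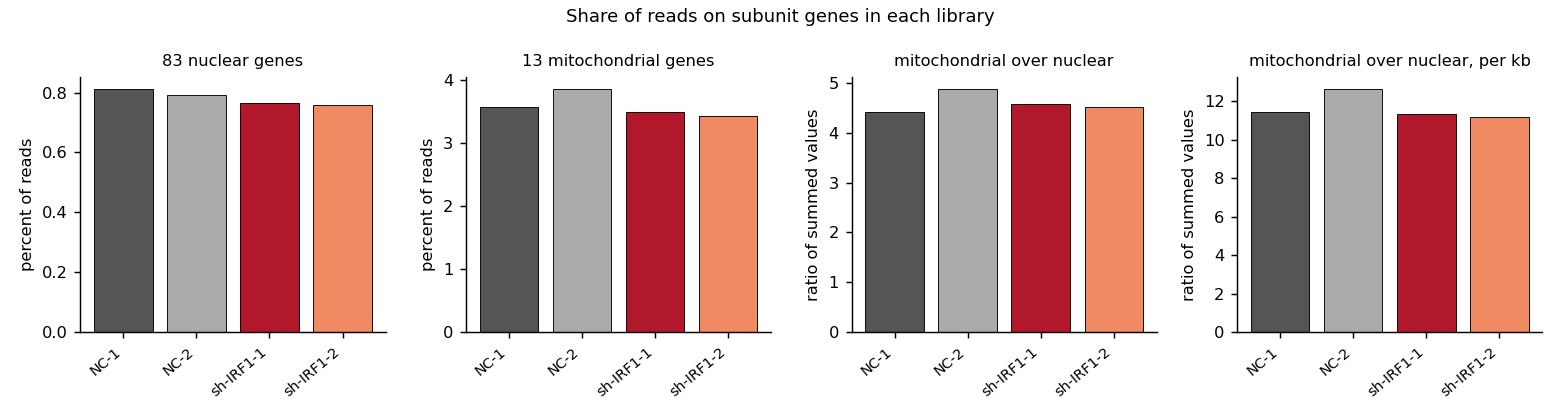
Percent of all gene reads on the 83 nuclear and on the 13 mitochondrial subunit genes, and the ratio of their summed normalized counts as such and per kilobase of exon, with 1 bar per library from 0. The shares are lower in both sh-IRF1 libraries, from 0.758% to 0.765% for nuclear genes, while the ratio in sh-IRF1 (4.52 and 4.57) lies between the NC values of 4.42 and 4.87 and the ratio per kilobase (11.4 and 11.2) lies below those of NC (11.5 and 12.6).

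The factors that transcribe, cut and stabilise mitochondrial RNA are nuclear genes, and more of them were lower than higher. Of 16 genes for transcription and copying of mitochondrial DNA, 6 were lower (37.5%, against 21.9% of all genes) and none was higher by limma, edgeR or DESeq2, or at an unadjusted p under 0.05. TFB2M, the factor that opens the promoter for the mitochondrial RNA polymerase, fell from 589 and 653 to 405 and 388 (log2 fold change -0.64, SE 0.10, adjusted p = 3.6e-07). TFAM, which packs mitochondrial DNA and starts transcription, fell from 1935 and 1881 to 1611 and 1672 (log2 fold change -0.22, SE 0.05, adjusted p = 9.09e-04). POLRMT, the polymerase itself, was 3575 and 3618 in NC and 3617 and 3656 in sh-IRF1 and was not called. MTERF3, TWNK, TOP1MT and RNASEH1 were also lower, but of 15 alternatives the call was lost in 3 for MTERF3, 2 each for TWNK and TOP1MT and 7 for RNASEH1. The losses for MTERF3 came without NC-2 or either sh-IRF1 library, for TWNK without NC-1 or sh-IRF1-1, for TOP1MT without sh-IRF1-2 or with libraries scaled to equal totals, and for RNASEH1 without any 1 library, with DESeq2 and with either scaling by totals.

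Of 16 genes for processing and stability of mitochondrial RNA, 9 were lower (56.2%, against 21.9% of all genes) and 2 higher (12.5%, against 20.3%), with a median of -0.20. LRPPRC, which keeps mitochondrial messages stable, fell from 10507 and 10415 to 7467 and 7663 (log2 fold change -0.47, SE 0.03, adjusted p = 1.99e-17), while its partner SLIRP was not called (log2 fold change -0.15). GRSF1, of the mitochondrial RNA granules, and FASTKD3 had log2 fold changes of -0.52 (adjusted p = 7.11e-13) and -0.64 (adjusted p = 2.33e-07). HSD17B10, a subunit of the RNase P that cuts before tRNAs, went strongly the other way, from 401 and 365 to 888 and 811 (log2 fold change 1.15, SE 0.09, adjusted p = 1.35e-14). TRMT10C, of the same enzyme, was lower (log2 fold change -0.28, adjusted p = 0.00906), and PRORP, its nuclease, was not called (0.41, adjusted p = 0.234, with NC libraries of 93.3 and 43.1). FASTK, the other higher gene, rose from 1268 and 1150 to 1786 and 1659 (log2 fold change 0.51, SE 0.06, adjusted p = 1.51e-09).

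Of 9 nuclear regulators of respiratory genes, 4 were lower (50%, against 21.9% of all genes) and 1 higher (12.5%, against 20.3%) among 8 tested. GABPB1 fell from 637 and 615 to 488 and 492 (log2 fold change -0.35, SE 0.09, adjusted p = 0.00146). GABPA, its DNA-binding partner, had a log2 fold change of -0.23 (adjusted p = 0.00845), a call that was lost without NC-1 or sh-IRF1-1. YY1 (-0.14, adjusted p = 0.00103) and the coactivator PPRC1 (-0.14, adjusted p = 0.0225) were lower, the latter not without NC-2 or sh-IRF1-2. GABPB2 was higher (0.31, adjusted p = 0.00677), a call lost without sh-IRF1-1. NRF1 (-0.14, adjusted p = 0.206), ESRRA (0.09) and PPARGC1B (-0.02) were not called, and PPARGC1A had at most 1.03 normalized reads.

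Of 55 assembly factors tested, 9 were lower (16.4%) and 6 higher (10.9%), both below the shares over all genes (21.9% and 20.3%). NDUFAF2, a late assembly factor of complex I, fell from 116 and 84.2 to 44.8 and 47.8 (log2 fold change -1.08, SE 0.26, adjusted p = 5.58e-04). COA7, a complex IV factor, fell from 1415 and 1301 to 890 and 865 (log2 fold change -0.63, SE 0.07, adjusted p = 8.33e-11). ATPAF2, which chaperones the alpha subunit of the ATP synthase, rose from 352 and 290 to 565 and 499 (log2 fold change 0.73, SE 0.11, adjusted p = 3.49e-07), opposite in direction to ATP5F1A. NDUFAF3 was higher (0.26, adjusted p = 1.25e-04), as was LYRM7 (0.17), whose call was lost without NC-1, sh-IRF1-1 or sh-IRF1-2. SDHAF3 (-0.32, lost without NC-2 or sh-IRF1-2) and TMEM70 (-0.19, lost without any library but NC-2) were lower. COX18 was higher (0.22), a call lost without any library but NC-2.

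The mobile carriers differed too. CYCS, cytochrome c, was lower (log2 fold change -0.15, SE 0.04, adjusted p = 0.00465), a call lost without NC-2 or sh-IRF1-2. Of 13 genes for synthesis of coenzyme Q, 5 were higher (38.5%, against 20.3% of all genes) and 3 lower (23.1%, against 21.9%). COQ2, which joins the ring to its tail, rose from 605 and 578 to 816 and 731 (log2 fold change 0.38, SE 0.08, adjusted p = 2.17e-04), whereas PDSS2, of the enzyme that makes the tail, was lower (-0.34, adjusted p = 0.00789), not without NC-2 or sh-IRF1-2. NDUFAB1, the acyl carrier subunit of complex I, and DMAC2L were not called.

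**Figure D5:**
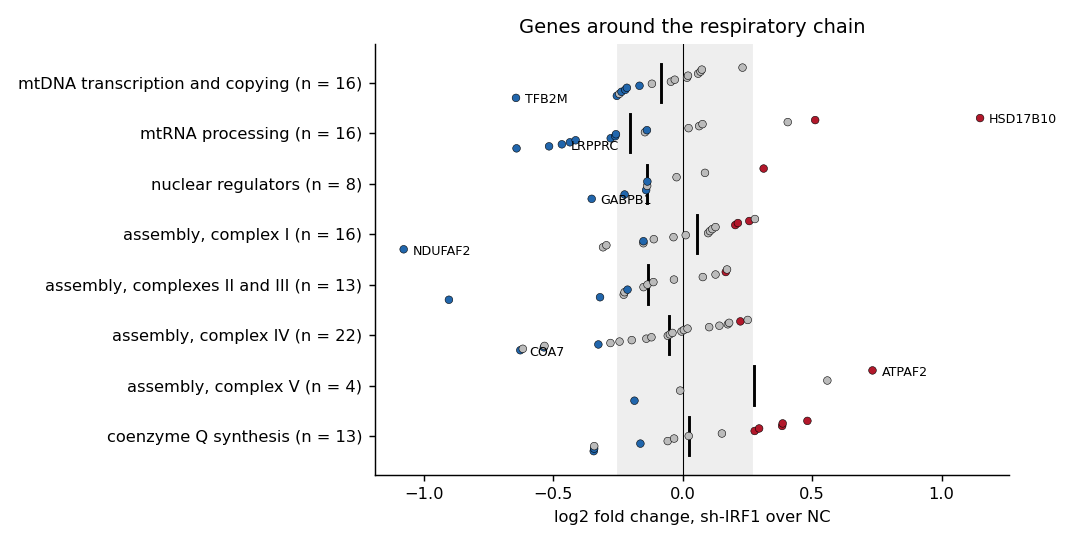
Log2 fold changes (horizontal axis, sh-IRF1 over NC) of the tested genes in 8 lists around the respiratory chain, with called genes in blue (lower) and red (higher), list medians as black bars and the central part of all genes, from -0.251 to 0.268, as a grey band. The genes for mitochondrial RNA processing lie mostly to the left, with HSD17B10 farthest to the right at 1.15 and FASTK, also called higher, at 0.51.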

How the data were processed

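RNA of 2 NC and 2 sh-IRF1 samples of MV4-11 was prepared with an Illumina TruSeq RNA kit. The submitters' processing notes name HISAT2 2.0.5 and hg38, and the counting tool and annotation are not given in the sources used here. As deposited by the authors, the values are a signal in units of reads over 1 size factor per library, called normalized read counts here. All values came out as whole multiples of 0.937 to 1.03 per read (100% within 0.01), which gave the reads back. No column of other samples was present (0).

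Symbols were matched for 23456 of 23622 Ensembl identifiers, and exons came from GENCODE 44. Levels per kilobase used all annotated exonic bases of a gene, and a member was marked as uncertain, but kept in the counts, where over 10% of these bases were shared with another gene, where named pseudogenes held over 10% as many reads, or where it was listed as a paralog. Values were tested as log2(value + 1) with limma 3.58.1 (R 4.3.3, trend and robust), on the 14120 genes that reached 10 in 2 or more libraries, with Benjamini-Hochberg adjustment over all of them. Fold changes are on this scale, which understates changes of low genes. A gene was called at an adjusted p under 0.05. On simulated data for this comparison with 14124 genes, limma recovered 94 of 94 genes changed by a log2 of 1 and 64 of 106 changed by 0.3. Every simulated gene had the same small spread, set and not fitted to these libraries, and only well-read genes were changed. These rates are thus not the power for the genes tested here. edgeR 4.0.16 and DESeq2 1.42.0 on the recovered reads were alternatives.

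The members and gene lists were chosen with earlier results of these data known. Named genes were all mitochondrial members, in each complex the smallest p per direction, the largest change and calls against the majority, changes beyond 0.5, tissue isoforms, the 3 highest levels, short lists whole, and the smallest p per direction in other lists. Other names were chosen after values were seen. Values of some genes that the rule names are not reported here, though counts and medians include them.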

Additional observations from a re-analysis of the deposited data

How the results depend on the processing

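With 2 libraries per group, small differences can be missed. Changes of 0.3 on the log2 scale often were in simulated data, whose spread was set and not fitted to these libraries. Of 211 genes tested by name, with 3159 values under 15 alternatives, 2971 stayed on their side of the threshold, 130 calls were lost, 57 were gained, and 1 reversed (MT-ND4, from -0.077 without NC-1 to 0.047 without NC-2, adjusted p = 0.0106). The cause of these shifts was not tested.

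With a log2 fold change beyond 0.5 required, 2 nuclear genes were lower and 0 higher, 0 mitochondrial genes were lower, and over all genes 1067 were lower and 1168 higher. Nuclear genes called higher became 12 with libraries scaled to equal totals and 12 with totals taken without the mitochondrial genome. The median of nuclear genes became -0.026 and -0.032 under these 2 scalings, -0.053 with edgeR and -0.09 without genes with copies or overlaps. Under the same 2 scalings the median of complex I became -0.011 and -0.017 (-0.047 with edgeR), of complex II -0.21 in both, of complex III 0.073 and 0.067, of complex IV 0.033 and 0.027, and of complex V -0.13 and -0.14. It became 0.099 and 0.093 for assembly factors of complex I, -0.01 and -0.016 for those of complex IV, -0.054 and -0.06 for the subunits outside the symbol rule, and -0.33 in both for the ribosomal RNAs. It became -0.039 and -0.045 for mitochondrial transcription, -0.16 in both for RNA processing, -0.093 and -0.099 for nuclear regulators and 0.067 and 0.061 for coenzyme Q. The median of all genes moved to 0.043 and 0.037. DESeq2 gave 18 lower and 5 higher nuclear genes and no adjusted p for 9160 of 23622 genes.

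Mitochondrial genes called lower became 8 without the robust setting and 8 with edgeR. With the replicate number as a block they also became 8, while the counts of nuclear genes, 21 lower and 7 higher, moved by less than 1.5 times. Same-numbered libraries deviated together only weakly (correlation 0.0211 over the 9962 genes with higher values), so the numbers were not taken as a pairing.

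Leaving out a library leaves 1 in its group, which is then assumed to vary like the other group. Leaving out each library in turn gave 16 to 22 lower and 3 (without NC-2 or without sh-IRF1-1) to 8 higher nuclear genes, and 5 to 10 (without NC-1) lower and 0 to 1 (without NC-2) higher mitochondrial genes. Over all genes it gave 2445 to 2723 lower and 2053 to 2679 higher. The nuclear median ran from -0.067 to -0.054, the mitochondrial median from -0.16 to -0.05, and the nuclear minus the mitochondrial median from -0.0039 to 0.1. The medians ran from -0.051 to -0.0053 for complex I, -0.28 to -0.22 for complex II, -0.058 to 0.04 for complex III, -0.058 to 0.039 for complex IV and -0.2 to -0.16 for complex V. Those of the assembly factors ran from 0.0054 to 0.1 for complex I, -0.17 to -0.051 for complexes II and III, -0.062 to -0.02 for complex IV and 0.021 to 0.45 for complex V. The others ran from -0.12 to -0.072 for the subunits outside the symbol rule, -0.39 to -0.35 for the ribosomal RNAs, -0.12 to -0.07 for mitochondrial transcription, -0.21 to -0.16 for RNA processing, -0.16 to -0.1 for nuclear regulators and 0.047 to 0.2 for coenzyme Q. IRF1 ran from -0.86 to -0.78.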
